A study of Arabidopsis thaliana with 6 samples.

Results

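The Pol V and DRM2 targeting arm of RNA-directed DNA methylation was followed through the root meristem as 10 genes, named by locus identifier, of the 33554 loci in each expression table. All 10 reached 1 FPKM (fragments per kilobase of transcript, scaled to the fragments mapped in the library) in at least 1 library, and so belonged to the 19671 measured genes. The members were NRPE1 (AT2G40030), DRD1 (AT2G16390), DMS3 (AT3G49250), RDM1 (AT3G22680), SUVH2 (AT2G33290), SUVH9 (AT4G13460), KTF1 (AT5G04290), IDN2 (AT3G48670), FDM1 (AT1G15910) and DRM2 (AT5G14620). The rule that names them uses their roles in the pathway and no measured value, though they were chosen with earlier results of these data known.

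In plants, RNA-directed DNA methylation uses small RNAs to mark the DNA to be methylated. RNA polymerase V transcribes silent loci into scaffold RNAs, Argonaute 4 loaded with small RNAs pairs with these transcripts, and the methyltransferase DRM2 is brought to the site, where it methylates cytosines in every sequence context. The pathway keeps transposons silent in meristems and sets new methylation, and it works beside maintenance enzymes that copy existing marks at replication.

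The expression tables came from polyA+ RNA of Arabidopsis thaliana root cells sorted by green fluorescence, from seedlings grown on plates for 6 days with 16 hours of light a day at 22 °C. There were 6 libraries in 5 cell types: epidermis (ProWER:GFP), cortex (ProAT1G09750:GFP), endodermis (ProSCR:GFP line1 and line2), stele (ProWOL:GFP) and columella root cap (PET111 enhancer trap line). Endodermis thus had 2 libraries and each other cell type 1, so that for those cell types no value has a replicate check. Every group is defined by where its reporter is active, no treatment or mutant was compared, and the labels do not say whether the endodermis lines were grown or sorted on separate days.

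Markers were read before the members. Summed markers of epidermis, stele and columella root cap were highest in the library of that name, and AED3 (AT1G09750), whose promoter drives the cortex line, reached 43.0 FPKM in cortex and at most 5.51 elsewhere. The other cortex marker, CO2 (AT1G62500), went against its label, with 2.39 FPKM in cortex and 6.97 in endodermis line 2. The endodermis lines differed in all 3 endodermis markers, and not in 1 direction. CASP1 (AT2G36100), a scaffold protein of the Casparian strip, was at 85.2 FPKM in line 2 and 2045 in line 1, and its regulator MYB36 (AT5G57620) was at 70.5 in line 2 and 377 in line 1. SCR (AT3G54220), whose promoter drives both lines, was at 147 FPKM in line 2 and 59.7 in line 1. The columella root cap factor BRN1 (AT1G33280) was also at 47.8 FPKM in epidermis. The 4 columella root cap markers summed to 423 FPKM in columella root cap and 93.1 in epidermis. Their sum was 83.5 in endodermis line 1 and 70.5 in stele, mostly from PIN3 (AT1G70940) at 78.6 and 70.0 FPKM. WOL (AT2G01830), whose promoter drives the stele line, was at 46.0 FPKM in stele, 30.7 in epidermis and at most 24.6 in the other libraries. Summed FPKM lay between 576322 and 642028. The depth of each library is unknown, since no fragment totals were used here. Judged by loci under 0.1 FPKM, the value of a single fragment lay between 0.986 and 1.58 times that in endodermis line 1, the largest in cortex.

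Most of the 10 genes shared a pattern across the layers. They were low in epidermis and in endodermis line 1 (SUVH9 in epidermis alone), intermediate in cortex, and high in endodermis line 2 and stele, while the columella root cap was high for most of them and low for SUVH2. Epidermis was the lowest library for 8 of 10 members, against 32.9% of all measured genes, and the other 2 were lowest in endodermis line 1 (DMS3, as were 13.3% of all measured genes) and columella root cap (SUVH2, as were 16.6%). After quantile normalization epidermis was lowest for 5 of the 10. Epidermis and endodermis line 1 were together the lowest pair for 9 of 10, against 23.5% of all measured genes. In bulk libraries fewer expressing cells and less RNA per cell cannot be told apart.

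**Figure D1:**
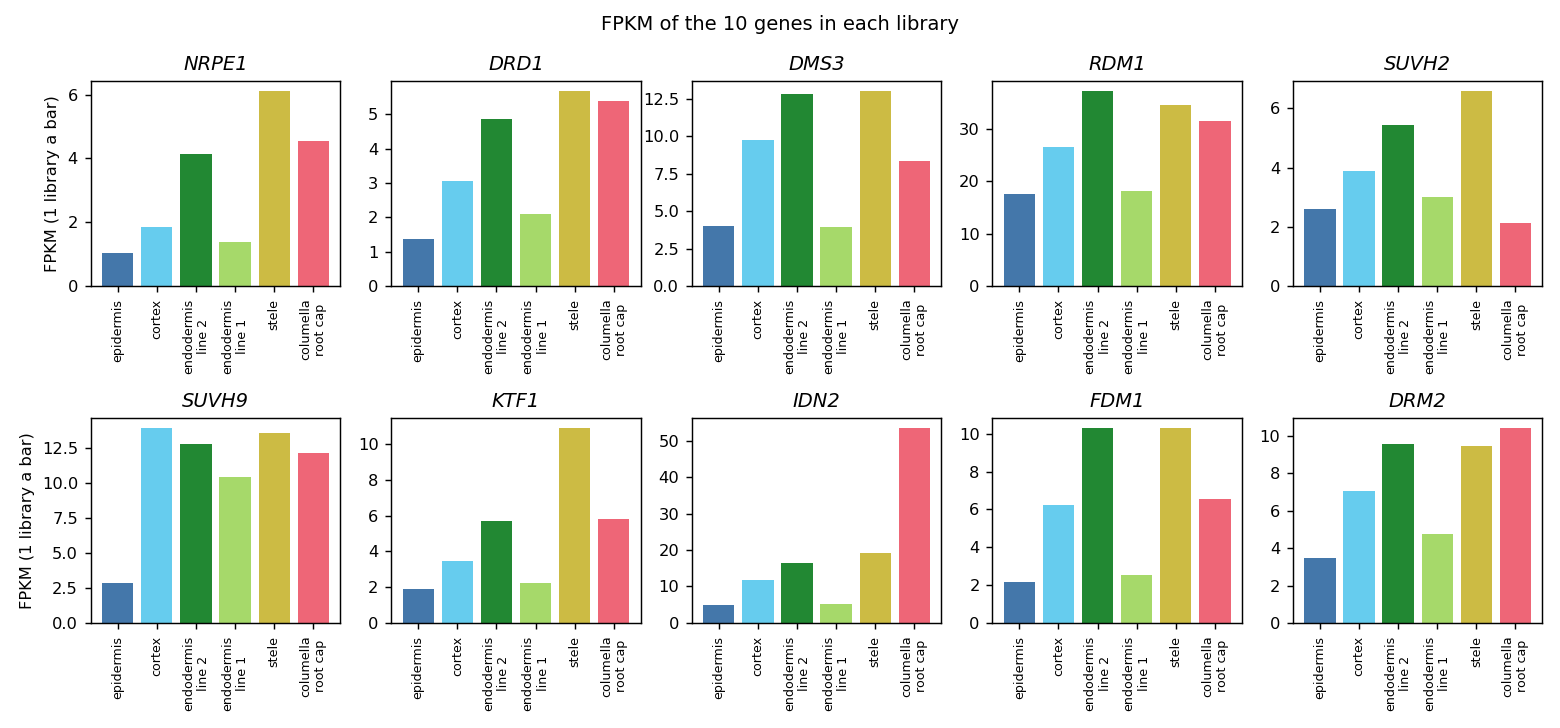
Bars give FPKM of each gene (linear axes from 0, scaled separately per gene) in the 6 libraries, 1 library a bar and so with no error bar. Most genes are low in epidermis and endodermis line 1, IDN2 stands at 53.6 FPKM in columella root cap, and SUVH9 is low in epidermis alone at 2.82 FPKM.

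NRPE1, the largest subunit of RNA polymerase V and the subunit that sets it apart, was among the weakest members. It was at 1.05 FPKM in epidermis, 1.85 in cortex, 4.14 in endodermis line 2, 1.38 in endodermis line 1, 6.12 in stele and 4.53 in columella root cap. The endodermis mean was 2.76 ± 1.96 (SD, n = 2), and no gap between neighbouring cell types in the order stele, columella root cap, endodermis, cortex, epidermis was larger than the spread between the endodermis lines on the log2(FPKM + 1) scale. NRPB1 (AT4G35800), the matching subunit of RNA polymerase II, was at 24.4 FPKM in epidermis and 59.0 in stele. The ratio of NRPE1 to NRPB1 levels was 0.0430 in epidermis, 0.0589 in cortex, 0.108 in endodermis line 2, 0.0524 in endodermis line 1, 0.104 in stele and 0.0839 in columella root cap. NRPD1 (AT1G63020) is the counterpart of NRPE1 in polymerase IV, which makes the small RNA precursors. NRPD1 was at 14.1 FPKM in columella root cap and at most 0.753 elsewhere, with 0.211 in stele. The ratio of NRPE1 to NRPD1 was 0.322 in columella root cap, and between 1.64 (epidermis) and 29.1 (stele) elsewhere. Outside columella root cap the ratio thus rests on NRPD1 values under 1 FPKM.

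DRD1, DMS3 and RDM1 form the DDR complex, which polymerase V needs on chromatin. DRD1, a remodeller of the SNF2 family, was at 1.38 FPKM in epidermis, 3.05 in cortex, 4.86 in endodermis line 2, 2.10 in endodermis line 1, 5.69 in stele and 5.40 in columella root cap. DMS3, a protein with the hinge domain of structural maintenance of chromosomes proteins, was at 4.04 FPKM in epidermis, 9.75 in cortex, 12.8 in endodermis line 2, 3.92 in endodermis line 1, 13.0 in stele and 8.38 in columella root cap. Both were high in stele, and the endodermis lines spanned most of their range, with means of 3.48 ± 1.96 FPKM for DRD1 and 8.36 ± 6.28 FPKM for DMS3 (SD, n = 2).

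RDM1, a small protein that binds methylated DNA and joins the complex, was the most abundant member in 5 of the 6 libraries. It was at 17.6 FPKM in epidermis, 26.5 in cortex, 37.2 in endodermis line 2, 18.2 in endodermis line 1, 34.5 in stele and 31.4 in columella root cap. Its highest value was only 2.12 times its lowest, the narrowest range of the 10 genes, and it made up between 22.4% (columella root cap) and 41.8% (epidermis) of their summed FPKM. Its endodermis mean was 27.7 ± 13.5 FPKM (SD, n = 2). The level of RDM1 was 5.82 to 12.7 times that of DRD1 and 2.64 to 4.63 times that of DMS3 across libraries. In the RefSeq annotation of TAIR10.1, 68.4% of the exonic bases of RDM1 and 54.6% of those of DMS3 overlap a gene on the opposite strand, AT3G22670 and AT3G49240. Those neighbours were at 1.78 to 8.20 and 6.70 to 40.4 FPKM, each highest in stele, as DMS3 was and RDM1 was not. Reads of overlapping genes cannot be told apart if strand was not used, which the sources used here do not state.

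SUVH2 and SUVH9 are related proteins that bind methylated DNA and recruit polymerase V. The lowest library was epidermis for SUVH9 and columella root cap for SUVH2, which was low in epidermis too. SUVH9 was at 2.82 FPKM in epidermis, 14.0 in cortex, 12.8 in endodermis line 2, 10.4 in endodermis line 1, 13.6 in stele and 12.2 in columella root cap. Epidermis thus stood apart from 5 libraries that lay within 10.4 to 14.0 FPKM, and the endodermis mean of 11.6 ± 1.66 FPKM (SD, n = 2) was the tightest pair among the members relative to its level. SUVH9 was the only member depleted in epidermis. Depleted means at least 2-fold below every library of the other cell types on the log2(FPKM + 1) scale. Each of those libraries must reach 5 FPKM. Only SUVH9, RDM1 and IDN2 could be so called, since the other members were under 5 FPKM in endodermis line 1. Among all measured genes 0.966% were depleted in epidermis. Without endodermis line 1, 3 members were so called, IDN2 and FDM1 being the others. The log2 difference to the other 4 cell types on average was -1.85 (SE 1.01), and limma, fitted over all 19671 genes with Benjamini-Hochberg adjustment, did not call it (adjusted p = 0.448).

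SUVH2 was at 2.62 FPKM in epidermis, 3.87 in cortex, 5.43 in endodermis line 2, 3.005 in endodermis line 1, 6.58 in stele and 2.13 in columella root cap. The endodermis mean was 4.22 ± 1.71 FPKM (SD, n = 2). Epidermis lay 0.21 above columella root cap on the log2(FPKM + 1) scale, less than the SD of 0.48 between the endodermis lines. SUVH2 was the only member that was lower in columella root cap than the other cell types on average (log2 difference -0.70, SE 0.98). The ratio of SUVH9 to SUVH2 was 1.08 in epidermis, 3.61 in cortex, 2.36 in endodermis line 2, 3.48 in endodermis line 1, 2.06 in stele and 5.70 in columella root cap. In epidermis the levels of these genes were nearly equal, and in every other library SUVH9 was at least 2.06 times as high. Of the exonic 50-base words of both genes, 0% occur elsewhere in the TAIR10.1 genome.

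Among the other 8 genes of the SUVH family, 5 were measured and none was enriched or depleted. In any cell type at most 5.44% of all measured genes were enriched and 2.2% depleted. SUVH4 (AT5G13960), a histone H3 lysine 9 methyltransferase that works with CMT3, was at 3.48 FPKM in epidermis, 8.15 in cortex, 13.2 in endodermis line 2, 4.53 in endodermis line 1, 18.3 in stele and 7.24 in columella root cap. SUVH3 (AT1G73100) was highest in columella root cap at 21.4 FPKM and SUVH1 (AT5G04940) in stele at 20.4 FPKM. SUVH7 (AT1G17770) and SUVH8 (AT2G24740) were at most at 0.0317 FPKM, and SUVH10 (AT2G05900) was listed at 0 in all 6 libraries.

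KTF1 is an SPT5-like factor with repeats that bind Argonaute 4, and links it to polymerase V transcripts. It was at 1.87 FPKM in epidermis, 3.48 in cortex, 5.69 in endodermis line 2, 2.25 in endodermis line 1, 10.9 in stele and 5.82 in columella root cap. The endodermis mean was 3.97 ± 2.43 FPKM (SD, n = 2). Stele was highest, with a log2 difference of 1.41 (SE 1.02) to the other cell types on average, the largest of the 10 genes in that comparison. The gap of 0.81 between stele and the next library missed the 2-fold margin. It was larger than the SD of 0.73 between the endodermis lines and smaller than the log2 difference of 1.04 between them. The elongation factor SPT5-2 (AT4G08350), its relative in polymerase II transcription, was at 13.2 FPKM in epidermis and 48.4 in stele. The KTF1 to SPT5-2 ratio lay between 0.136 (cortex) and 0.226 (stele), while SPT5-1 (AT2G34210) was at most at 0.0231 FPKM.

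IDN2 and FDM1 belong to a plant family of RNA-binding proteins that form a complex and act after polymerase V transcription. IDN2 was at 5.02 FPKM in epidermis, 11.7 in cortex, 16.4 in endodermis line 2, 5.21 in endodermis line 1, 19.3 in stele and 53.6 in columella root cap. The endodermis mean was 10.8 ± 7.92 FPKM (SD, n = 2), and columella root cap stood above every other library. Its value there was 10.7 times that in epidermis, the widest range of the 10 genes. It was enriched in columella root cap by the 2-fold rule, as were 5.44% of all measured genes, and no other member was. The log2 difference was 2.28 (SE 0.96), with an unadjusted p of 0.0172 in limma and an adjusted p of 0.199.

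FDM1 was at 2.14 FPKM in epidermis, 6.22 in cortex, 10.3 in endodermis line 2, 2.51 in endodermis line 1, 10.3 in stele and 6.52 in columella root cap. The columella root cap value of FDM1 was inside the range of the other libraries, and the endodermis mean was 6.42 ± 5.53 FPKM (SD, n = 2). The ratio of IDN2 to FDM1 was 2.34 in epidermis, 1.88 in cortex, 1.59 in endodermis line 2, 2.08 in endodermis line 1, 1.87 in stele and 8.22 in columella root cap. The columella root cap ratio was 3.51 times the next highest. In FDM1 11.1% of exonic 50-base words, and in IDN2 4.27%, occur elsewhere in the genome, and how the authors assigned reads that map to several places is not given in the sources used here.

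Of 5 relatives of these genes, 4 were measured. FDM4 and SGS3 were, like IDN2, highest in columella root cap (23.2% of all measured genes), and FDM5 and FDM3 in stele (28.6%). FDM5 (AT1G80790), the most abundant relative, was at 8.49 FPKM in epidermis, 22.4 in cortex, 24.4 in endodermis line 2, 9.78 in endodermis line 1, 24.9 in stele and 16.3 in columella root cap. FDM3 (AT3G12550) lay between 2.65 and 7.38 FPKM, and FDM2 (AT4G00380) reached no more than 0.994 FPKM. FDM4 (AT1G13790) was at 1.75 FPKM in columella root cap and at most 0.457 elsewhere, below the level the 2-fold rule asks for, and limma called it there (log2 difference 1.22, adjusted p = 0.0248), a call that was lost with size factors. SGS3 (AT5G23570), a more distant relative that acts in another small RNA pathway, was at 10.7 FPKM in columella root cap and at most 7.36 elsewhere.

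DRM2, the methyltransferase itself, was at 3.48 FPKM in epidermis, 7.04 in cortex, 9.57 in endodermis line 2, 4.74 in endodermis line 1, 9.49 in stele and 10.5 in columella root cap. Columella root cap, endodermis line 2 and stele were close to each other, and the endodermis mean was 7.16 ± 3.42 FPKM (SD, n = 2). DRM3 (AT3G17310), a catalytically inactive relative that assists DRM2, followed it, and the DRM2 to DRM3 ratio lay between 0.666 (stele) and 1.03 (columella root cap). DRM1 (AT5G15380) was at most at 0.0381 FPKM in any library.

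The ratio of DRM2 to the other methyltransferases was highest in columella root cap, which has 1 library. The endodermis lines also differed in this ratio. MET1 (AT5G49160), the maintenance enzyme for CG sites, was at 5.92 FPKM in epidermis, 16.2 in cortex, 22.6 in endodermis line 2, 6.42 in endodermis line 1, 36.9 in stele and 5.09 in columella root cap. The ratio of DRM2 to MET1 was 0.588 in epidermis, 0.434 in cortex, 0.424 in endodermis line 2, 0.739 in endodermis line 1, 0.257 in stele and 2.05 in columella root cap. Columella root cap was the only library where DRM2 was above MET1, at 2.78 times the next highest ratio. The same held against CMT3 (AT1G69770), the CHG methyltransferase, with 1.88 in columella root cap and 0.179 to 0.460 elsewhere. MET1 and CMT3 were both lowest in columella root cap (5.09 and 5.56 FPKM). DRM2 was at 10.5 FPKM there, against 9.57 in endodermis line 2. Against CMT2 (AT4G19020), which methylates CHH sites in heterochromatin without small RNAs, the ratio was 2.40 in columella root cap and 1.498 in endodermis line 1, and at most 0.722 in the other 4 libraries.

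**Figure D2:**
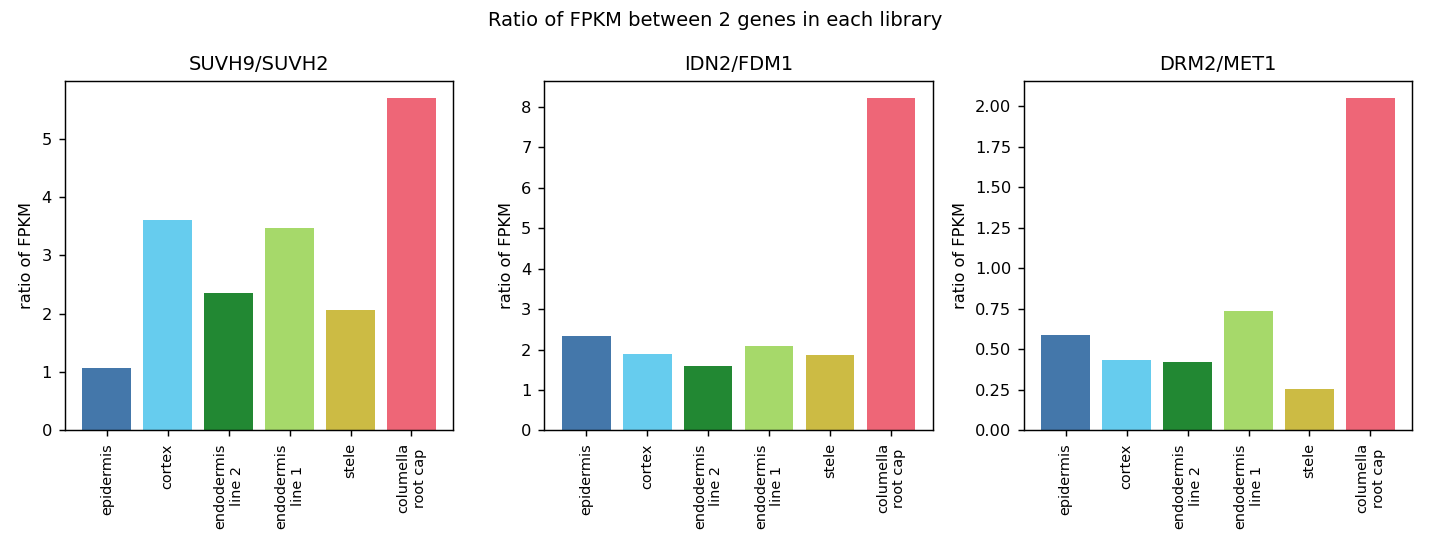
Bars give the ratio of FPKM between the named genes in each library (linear axes from 0, 1 library a bar). Columella root cap has the highest bar in each panel, at 5.70, 8.22 and 2.05, and epidermis has the lowest SUVH9 to SUVH2 ratio at 1.08.

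Each cell type was then set against the mean of the other 4. In epidermis all 10 members were below that mean, as were 65.9% of all measured genes, with a median log2 difference of -1.13 and a range of -1.85 to -0.44. The median over all measured genes was itself -0.39, and dividing by size factors moved that median by 0.29, leaving the members 0.78 below it. In stele all 10 were above (52% of all measured genes), with a median of 0.77 (0.45 to 1.41) against 0.058 for all measured genes, and stele was the highest library for 5 of 10, against 28.6% of all measured genes. Endodermis line 2 was highest for RDM1 and FDM1 (8.24% of all measured genes), columella root cap for IDN2 and DRM2 (23.2%) and cortex for SUVH9 (12.6%). In columella root cap 9 of 10 were above (48.1% of all measured genes) and 1 below (51.9%), with a median of 0.39 (-0.70 to 2.28) against -0.048. In cortex 4 of 10 were above (49.6% of all measured genes) and in endodermis 2 of 10 (46.4%). Cortex and endodermis had medians of -0.0013 and -0.077, against -0.0058 and -0.032 for all measured genes. The endodermis value averages lines that lay apart: its median was 0.42 without line 1 and -0.63 without line 2. The cortex median also changed sign, with -0.24 without epidermis and 0.12 without stele.

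By the 2-fold rule no member was enriched in epidermis, cortex, endodermis or stele, where 4.46%, 0.824%, 0.681% and 1.55% of all measured genes were. None was depleted in cortex, endodermis, stele or columella root cap, where 0.0458%, 0%, 2.2% and 1.11% were. Depletion asks for 5 FPKM or more in every library of the other cell types, here including epidermis. Only RDM1 and IDN2 reached that level in epidermis, so the other members could not be called depleted in these cell types. In limma 0 of 10 members were called in any of the 5 comparisons, and 1, IDN2 in columella root cap, had an unadjusted p under 0.05. That threshold was passed by 13.3% of all measured genes in epidermis, 4.37% in cortex, 8.63% in endodermis, 13.9% in stele and 13% in columella root cap. Over all measured genes limma called 6.19% higher and 0.473% lower in epidermis, 0.508% and 0.00508% in cortex, 1.91% and 0.249% in endodermis, 0.961% and 2.01% in stele, and 4.71% and 0.336% in columella root cap. The fit has 1 residual degree of freedom, from the endodermis lines, and assumes that single libraries vary as that pair does. With size factors it called 670 genes in epidermis, against 1311 without them, and 0 in each other cell type.

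**Figure D3:**
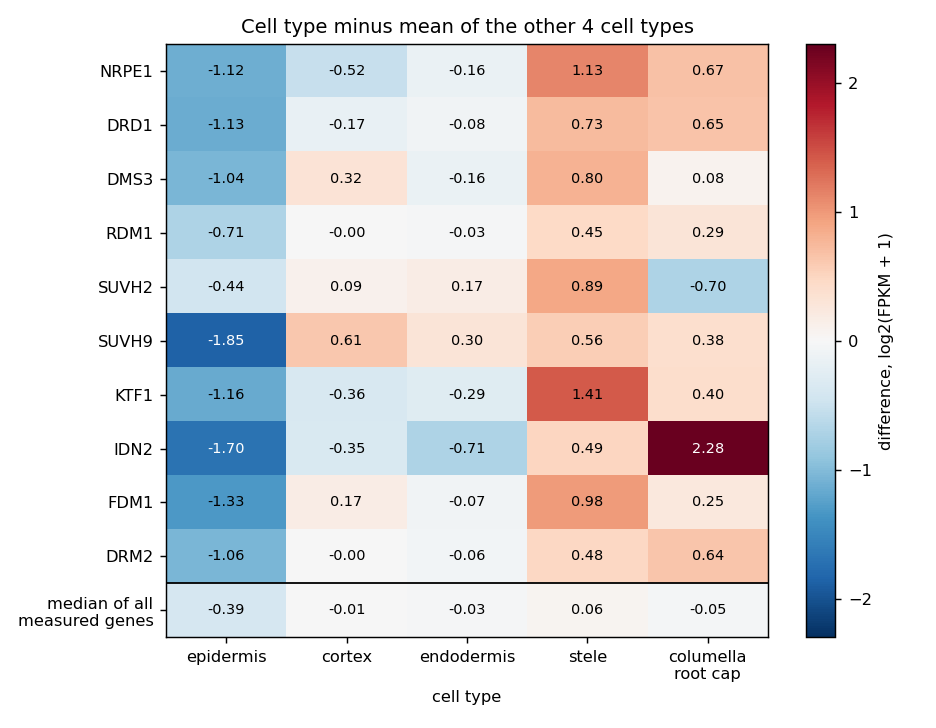
Each cell gives the log2(FPKM + 1) difference between a cell type and the mean of the other 4 for the 10 genes, with the median of all measured genes in the last row. The epidermis column is below 0 for all 10 genes, the stele column above 0 for all 10, and SUVH2 is the only gene below 0 in columella root cap.

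The spread between the endodermis lines sets how finely the cell types can be ordered. All 10 members were higher in line 2 than in line 1, as were 56.6% of all measured genes, with a median log2 difference of 1.02 against 0.18 for all measured genes. By the 2-fold rule 4 members differed (DMS3, KTF1, IDN2 and FDM1), against 16.1% of all measured genes at least 2-fold higher in line 2, and 0 were at least 2-fold higher in line 1, against 13.9%. NRPE1 passed the margin (log2 difference 1.11) but stayed under 5 FPKM. In FPKM, DRD1 (2.32 times), RDM1 (2.05) and DRM2 (2.02) were also more than 2-fold higher in line 2. Their differences on the log2(FPKM + 1) scale were under 1. FDM1 had the widest ratio, with line 2 at 4.12 times line 1, and SUVH9 the narrowest at 1.22. Of 40 gaps between neighbouring cell types in the order of each gene, 6 were larger than the SD between the lines, in 6 different genes. These were the gap above epidermis for SUVH9 (1.72), DRM2 (0.80) and DRD1 (0.77), the gap below stele for KTF1 (0.81) and SUVH2 (0.58), and the gap below columella root cap for IDN2 (1.43). All other neighbours in the 10 orders did not differ beyond that SD. The SD of 2 values is smaller than the difference between them. Of the 6 gaps only that of SUVH9 was above the log2 difference between its lines (0.27). For the rest of the 6 genes that difference was 0.88 (DRM2), 0.92 (DRD1), 1.04 (KTF1), 0.68 (SUVH2) and 1.49 (IDN2). The share of such gaps over all measured genes was not computed.

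**Figure D4:**
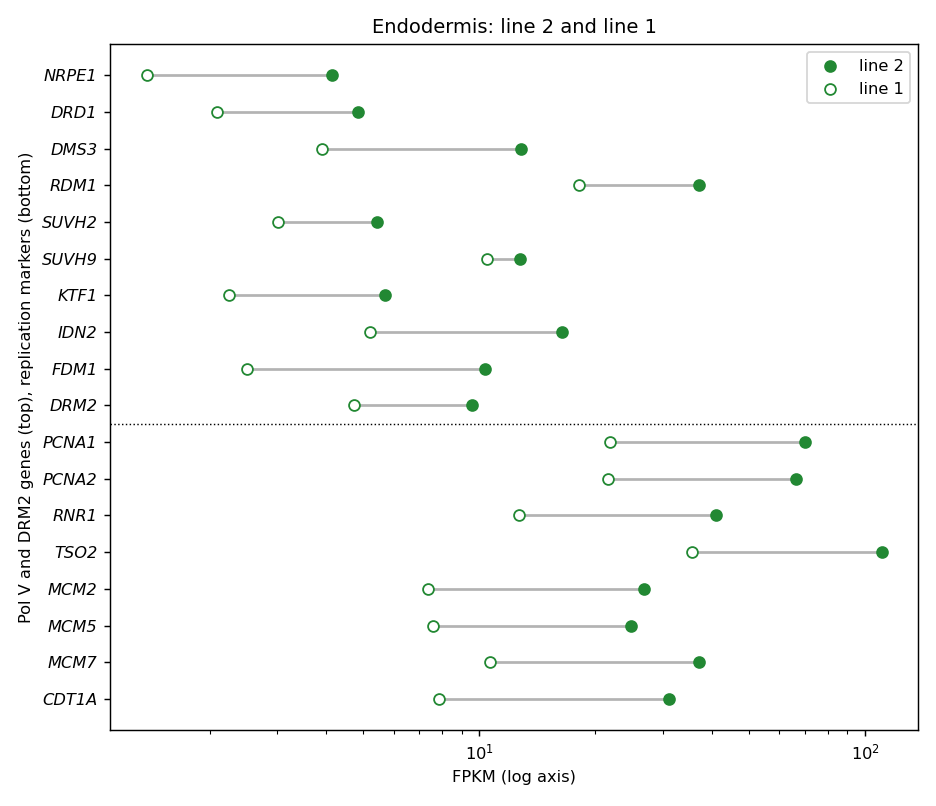
Points give FPKM (log axis) in endodermis line 2 (filled) and line 1 (open) for the 10 genes above the dotted line and 8 replication markers under it, 1 library a point. Every gene shown is higher in line 2, and SUVH9 has the shortest line, with 12.8 FPKM in line 2 and 10.4 in line 1.

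Markers of replicating cells moved with the members between these lines and in most layers. The summed FPKM of 8 such genes (PCNA1, PCNA2, RNR1, TSO2, MCM2, MCM5, MCM7 and CDT1A, all detected in each library) was 119 in epidermis, 302 in cortex, 407 in endodermis line 2, 125 in endodermis line 1, 562 in stele and 120.5 in columella root cap. The summed FPKM of the 10 members was 42.0, 87.4, 119, 53.7, 129 and 140.5 in the same libraries. Columella root cap thus had few replication transcripts and the highest member sum, to which IDN2 gave 38.2%. Without IDN2 the member sum was 86.9 in columella root cap, below the 110.2 of stele and the 103 of endodermis line 2. Members over replication markers came to 1.17 in columella root cap, against 0.352 in epidermis, 0.289 in cortex, 0.293 in endodermis line 2, 0.429 in endodermis line 1 and 0.230 in stele. Without IDN2 the columella root cap ratio was 0.721, against at most 0.387 elsewhere. This ratio was highest in columella root cap for 9 of 10 members taken singly, and for 46.4% of all measured genes. The part of replication in the members' levels was not tested.

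**Figure D5:**
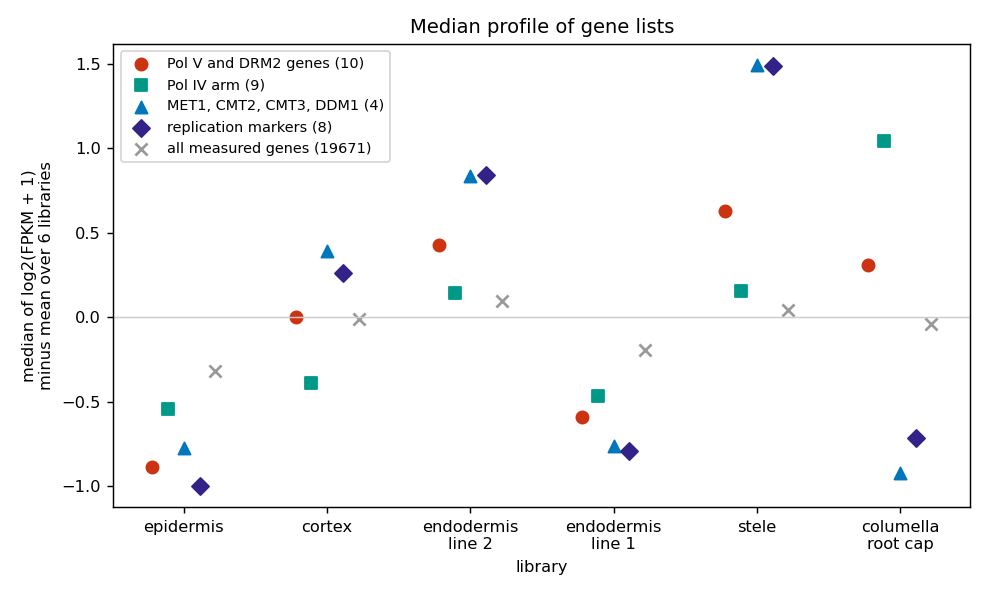
Points give, for each gene list, the median over its measured genes (number in the legend) of log2(FPKM + 1) minus the gene's mean over the 6 libraries. In columella root cap the Pol V and DRM2 genes stand at 0.31 and the Pol IV arm at 1.04, with replication markers at -0.71 and the maintenance genes at -0.92.

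Most other subunits of polymerase V are shared with polymerase II or IV. None of 12 was enriched, depleted or called by limma in any cell type, with 0 at an unadjusted p under 0.05. That p was reached by 4.37% (cortex) to 13.9% (stele) of all measured genes. In any cell type at most 5.44% of those were enriched and 2.2% depleted, and limma called at most 6.19% higher and 2.01% lower. NRPD2 (AT3G23780), the second largest subunit of both silencing polymerases, was at 1.38 FPKM in epidermis, 3.87 in cortex, 6.01 in endodermis line 2, 1.83 in endodermis line 1, 7.38 in stele and 9.14 in columella root cap. NRPE7 (AT4G14660) was at 10.5 FPKM in stele and 2.41 in epidermis. NRPD2, NRPE7, NRPD4 (AT4G15950) and NRPB9A (AT3G16980) were under 5 FPKM in epidermis, so they could not be called depleted in other cell types. NRPE5 (AT3G57080), a subunit of polymerase V alone, had another profile, at 19.6 FPKM in epidermis, 12.9 in cortex, 18.6 in endodermis line 2, 21.1 in endodermis line 1, 12.6 in stele and 7.99 in columella root cap. It was the only one of the 12 that was above the other cell types on average in epidermis (34.1% of all measured genes), where 11 were below (65.9%), and its endodermis mean was 19.9 ± 1.77 FPKM (SD, n = 2).

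Genes with the most similar profiles were found by Pearson's r of log2(FPKM + 1) over the 6 libraries, among 16077 other genes at 5 FPKM or more in at least 1 library. With 6 points that share their libraries, high values are common, and between 1.29% (SUVH9) and 11.7% (SUVH2) of these genes had r of at least 0.9 with a member. The nearest to NRPE1 was AT4G32970, to DRD1 SKS1 (AT4G25240), to DMS3 emb2191 (AT1G48175), to RDM1 AT2G45870 and to SUVH2 AT2G45710, all with r of at least 0.995. The nearest to SUVH9 was D6PK (AT5G55910), a kinase of auxin carriers, with r of 0.994. The nearest to KTF1 was NUFIP (AT5G18440), to IDN2 AT5G56370, to FDM1 AT3G03773 and to DRM2 AT5G10690, with r between 0.998 and 1.00. SUVR5 (AT2G23740), a SET domain protein, was second nearest to IDN2, at 32.8 FPKM in columella root cap and at most 14.4 elsewhere. Among the members themselves r lay between 0.029 (IDN2 and SUVH2) and 0.99 (FDM1 and DMS3) over 45 pairs, with a median of 0.84.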

How the data were processed

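RNA sequencing of 6 sorted-cell libraries was analysed from the deposited FPKM, 1 file per library. Per the submitters' processing notes, the authors worked with Cufflinks 2.0.2, TopHat 1.3.1 and Bowtie 0.12.7 on TAIR10. Of their settings, annotation, strand use and treatment of multiple mapping nothing is stated in those notes. Libraries were grouped by labelled cell type. Differences were taken on the log2(FPKM + 1) scale, which understates changes of low genes, over the 19671 genes that reached 1 FPKM in some library. Endodermis was the mean of its lines. The 2-fold rule asked for a log2 margin of 1 to each library outside the cell type. Every library on the higher side had to be at 5 FPKM or more, for depletion all those of the other cell types. Limma 3.58.1 (R 4.3.3, eBayes with trend) set each cell type against the average of the other 4 and made calls at an adjusted p under 0.05 where the log2 difference was at least 1. Its prior degrees of freedom were infinite, so its p-values rest on a spread fitted as a trend over mean expression, not on each gene's own. They measure only the spread between the endodermis lines, which may be technical or biological. The lines also differed in markers of endodermis and of replicating cells, and the source of their spread was not tested.

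The members and gene lists were chosen with earlier results of these data known, and no list was tested as a group. Named genes were the members, fixed pathway lists, paralogs, reporter genes and, for each member, the 3 most correlated genes, of which mainly the nearest is printed. All 96 listed loci matched the RefSeq table of TAIR10.1, and 32807 of 33554 loci did. No coordinates are printed, since the authors' build has another name. Exon overlap and 50-base words were computed within TAIR10.1. No sequence table of the members was used here. Python 3.11.15 was used. An FPKM carries no counting interval without fragment totals.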

Additional observations from a re-analysis of the deposited data

How the results depend on the processing

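SUVH9 in epidermis and IDN2 in columella root cap were called by the 2-fold rule under every scaling, pseudocount and filter tried, and without each other library in turn. At a 4-fold margin on the log2(FPKM + 1) scale both counts were 0, and 0 members differed between the endodermis lines. FDM1, 4.12 times as high in line 2 in FPKM, had a difference of 1.69 on that scale and so missed the margin. At 1.5-fold, KTF1 was enriched in stele (1 member) and 7 members differed between the lines. Depleted members in epidermis numbered 1 to 3 when single libraries were left out, with IDN2 and FDM1 added without endodermis line 1, and 2 (SUVH9 and FDM1) with the mean of the lines. The number of members lowest in epidermis was 5 with quantile normalization and 6 with size factors or with TPM, alternatives chosen for this count after seeing the data. Median differences lay between -1.49 and -0.89 in epidermis, 0.53 and 0.92 in stele and 0.12 and 0.68 in columella root cap. They changed sign in cortex (-0.24 to 0.12) and in endodermis, with 0.42 without line 1 and -0.63 without line 2. Each value lay within 0.92 of the reported one, the SD between the lines in the members' median level. That bound is wider than the reported medians in stele (0.77), columella root cap (0.39), cortex and endodermis. Lying within it therefore does not show that those medians are stable. Without the epidermis library the difference of SUVH9 was -0.18 in endodermis and -0.087 in columella root cap. Limma called 0 members under every setting run. Over all measured genes it called 1311 in epidermis and 992 in columella root cap, against 670 and 0 with size factors, 343 and 98 without the trend, and 92 and 93 with no filter on low values. With that filter dropped it called 0 in cortex, endodermis and stele, against 101, 424 and 585. With a 5 FPKM minimum it called 50 in cortex, 255 in endodermis and 582 in columella root cap. It was not run without an endodermis line, as no residual degree of freedom is left. No paired analysis was possible because 4 of the 5 cell types have 1 library. Relative depth limits cortex most.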

Other observations

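Partner factors of the pathway were listed for their roles. Of 14 measured, 14 were below the mean of the other cell types in epidermis, as were 65.9% of all measured genes, and 13 above it in stele, as were 52%. The list was not tested as a group, and 0 were enriched, depleted or called by limma. In any cell type at most 5.44% of all measured genes were enriched and 2.2% depleted, and limma called at most 6.19% higher and 2.01% lower. In limma 1 partner had an unadjusted p under 0.05 in stele (13.9% of all measured genes) and 1 in columella root cap (13%). AGO4 (AT2G27040), the Argonaute that reads polymerase V transcripts, was at 10.2 FPKM in epidermis, 16.7 in cortex, 36.0 in endodermis line 2, 16.8 in endodermis line 1, 60.1 in stele and 22.2 in columella root cap. AGO4 was 4.89 times NRPE1 in columella root cap and 8.68 to 12.2 times NRPE1 elsewhere. SUVR2 (AT5G43990), a SET domain protein of the pathway, was at 12.6 FPKM in stele and at most 7.83 elsewhere. MORC6 (AT1G19100), an ATPase that binds DMS3, was at 9.61 FPKM in columella root cap, 8.98 in stele and at most 6.51 in the other libraries.

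Of the relatives of DMS3 and DRD1, GMI1, CLSY1 and CLSY2 were highest in columella root cap, as were 23.2% of all measured genes. CLSY3 and CLSY4 were not. GMI1 (AT5G24280), related to DMS3 by its hinge domain and known from DNA repair, was at 4.87 FPKM in columella root cap and at most 1.01 elsewhere. Limma called it there (log2 difference 1.93, adjusted p = 0.00744), a call that was lost with size factors. CLSY1 (AT3G42670), a remodeller of the DRD1 family that acts with polymerase IV, was at 24.3 FPKM there and at most 2.82 elsewhere, while DRD1 was higher in stele than in columella root cap. CLSY2 (AT5G20420) was at 1.99 FPKM in columella root cap and at most 0.0519 elsewhere. CLSY1 was enriched there by the 2-fold rule, as were 5.44% of all measured genes. Limma also called CLSY1 (log2 difference 3.51) and CLSY2 (1.54) higher there, as it did 4.71% of all measured genes. Those calls too were lost with size factors. CLSY3 (AT1G05490) was highest in endodermis line 1 at 1.99 FPKM and CLSY4 (AT3G24340) in stele at 1.21 FPKM. Their columella root cap values were 0.0516 and 0.238 FPKM. NRPA1 (AT3G57660), the largest subunit of polymerase I, was enriched in stele at 34.2 FPKM, against at most 15.1 elsewhere.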
